A study of Mus musculus with 12 samples.

Results

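The genes described here encode apolipoproteins and proteins that build or remodel lipoproteins: *Apoa1*, *Apoa2*, *Apoa4*, *Apoa5*, *Apob*, *Apoc1*, *Apoc2*, *Apoc3*, *Mttp* and *Pltp*. They are 10 of the 55335 genes in the count table, taken by symbol, and each symbol stood on 1 row. Read counts were available for 12 libraries from male C57BL/6N mice in 4 groups with n = 3 each. Tshr f/f mice carried the thyrotropin receptor gene with loxP sites around the stretch from exon 10 to the stop codon, and Tshr MKO mice carried this allele together with Lyz2-Cre, so the floxed allele was common to all groups. Bone marrow-derived macrophages (BMDMs) of both genotypes came from mice 6 weeks old, were grown in M-CSF (10 ng/mL) over 7 days, and were exposed to TSH (1 ng/mL) for 24 h. Livers of both genotypes came from mice put on a high-fat diet at 6 weeks of age for 9 weeks, fasted for 8 h and given insulin (1.5 U/kg) 5 min before death. Lyz2 drives Cre in myeloid cells, not in hepatocytes, so the deletion in a whole liver is limited to its myeloid cells. No library without TSH and none of chow-fed mice was analysed here.

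Lipoproteins carry triglyceride and cholesterol through the blood, and hepatocytes are a main source of them. Apolipoprotein B is the scaffold of very-low-density lipoprotein (VLDL) and is loaded with lipid in the endoplasmic reticulum by the microsomal triglyceride transfer protein, the product of *Mttp*, while apolipoproteins A1 and A2 are the main proteins of high-density lipoprotein (HDL). The C apolipoproteins move between particles and tune lipoprotein lipase, which C2 activates and C3 restrains, A5 promotes triglyceride clearance, A4 is carried on chylomicrons and HDL, and the phospholipid transfer protein, the product of *Pltp*, remodels HDL.

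The libraries held 28962878 to 40420513 counts in liver and 33683981 to 40954211 in BMDMs, so that 3 counts stood for 0.0742 to 0.104 and 0.0733 to 0.0891 CPM (counts scaled to library size), limits that cover counting error only. *Tshr* had 0 to 5 counts in every library and could not be used to check the genotype. *Lyz2*, the gene that drives Cre, was at 27.7, 59.9 and 44.7 CPM in the f/f livers and at 1.56, 106 and 43.7 CPM in the MKO livers. A table of gene values in the study's supplement lists the same 6 livers under the opposite genotype in 72 of 72 values compared (6 of these also match the deposited label), so every liver direction given here rests on the labels of the count table, and "f/f liver" and "MKO liver" stand for livers so labelled. Of 10 hepatocyte markers, *Alb*, *Ttr*, *Cps1*, *Fgb*, *Cyp2e1*, *Pck1*, *Serpina1c* and *Tat* had at most 3 counts in any BMDM library, while *Ass1* had 1857 to 8974 and *Trf* 1351 to 18984. The summed level of the 10 was 99577 to 122226 CPM in the f/f livers, 111680 to 115252 in those labelled MKO and 174 to 509 CPM in BMDMs. The summed level of 10 macrophage markers was 155 to 385 and 162 to 349 CPM in those livers, and 15282 to 30229 CPM in BMDMs. The enterocyte markers *Alpi*, *Lct* and *Sis* had at most 3 counts in any liver and *Vil1* had 0 to 18. *Fabp2*, the remaining enterocyte marker, was at 68.0, 75.7 and 88.3 CPM in the f/f livers and at 108.5, 95.8 and 112.6 CPM in the MKO livers, without overlap (0.45, SE 0.12, edgeR unadjusted p = 0.00805). Its level moved in the same direction as those of *Apoa2*, *Apoc1* and *Apoc3*, and the part of enterocyte RNA in them was not tested.

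Of the 10 genes, 6 lie in 2 groups of neighbours on the mouse genome (GRCm38). On chromosome 9 they are *Apoa1* (ENSMUSG00000032083, 46228580–46230466, plus strand), *Apoc3* (ENSMUSG00000032081, 46232933–46235636, minus strand), *Apoa4* (ENSMUSG00000032080, 46240696–46243459, plus strand) and *Apoa5* (ENSMUSG00000032079, 46268633–46271919, plus strand), within 43.3 kb. On chromosome 7 they are *Apoc2* (ENSMUSG00000002992, 19671579–19677941, minus strand) and *Apoc1* (ENSMUSG00000040564, 19689481–19692660, minus strand), within 21.1 kb. The others lie alone: *Apoa2* (ENSMUSG00000005681, 171225054–171226379, plus strand) on chromosome 1, *Pltp* (ENSMUSG00000017754, 164839518–164857711, minus strand) on chromosome 2, *Mttp* (ENSMUSG00000028158, 138089854–138144968, minus strand) on chromosome 3 and *Apob* (ENSMUSG00000020609, 7977648–8016835, plus strand) on chromosome 12. All are annotated as protein-coding (GENCODE M21), and counts cover whole genes. Promoter windows were taken from RefSeq (GRCm38.p6), which gave 10 windows for 8 of the genes and none for *Apoc1* or *Apoc3*. The 250 bases before the start are printed below for *Apob* (chr12:7977427-7977676, plus strand) and *Apoa5* (chr9:46268358-46268607, plus strand, 1 of 2 windows), whose transcripts were found in liver and not, or hardly, in BMDMs, and for *Apoc2* (chr7:19677942-19678191, minus strand) and *Pltp* (chr2:164857709-164857958, minus strand), which had counts in both. Capitals mark 3 motifs searched on both strands with no overlap between them: TATAAA (the TATA box), GGGCGG (a GC box, CCGCCC on the other strand) and AGGTCA (the core of many nuclear receptor sites).
Apob: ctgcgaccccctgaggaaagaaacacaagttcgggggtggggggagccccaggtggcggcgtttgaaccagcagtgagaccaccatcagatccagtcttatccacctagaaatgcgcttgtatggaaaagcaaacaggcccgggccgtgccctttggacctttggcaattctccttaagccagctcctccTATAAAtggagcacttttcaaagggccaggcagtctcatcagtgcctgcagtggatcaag
Apoa5: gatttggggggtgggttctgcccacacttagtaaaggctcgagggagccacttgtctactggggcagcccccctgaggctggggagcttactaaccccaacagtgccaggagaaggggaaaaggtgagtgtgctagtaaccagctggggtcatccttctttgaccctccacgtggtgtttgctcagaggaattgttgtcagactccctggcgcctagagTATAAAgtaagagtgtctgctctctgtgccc
Apoc2: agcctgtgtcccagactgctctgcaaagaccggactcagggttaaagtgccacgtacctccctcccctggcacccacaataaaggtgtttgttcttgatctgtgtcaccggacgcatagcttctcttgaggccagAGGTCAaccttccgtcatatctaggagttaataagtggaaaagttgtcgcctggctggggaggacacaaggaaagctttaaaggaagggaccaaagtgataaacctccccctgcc
Pltp: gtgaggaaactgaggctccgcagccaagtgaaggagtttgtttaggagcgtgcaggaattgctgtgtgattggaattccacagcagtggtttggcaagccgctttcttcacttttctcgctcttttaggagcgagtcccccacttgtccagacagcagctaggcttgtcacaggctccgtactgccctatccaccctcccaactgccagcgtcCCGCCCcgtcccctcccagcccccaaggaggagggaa

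Distances are to the RefSeq starts, which can differ from the GENCODE positions given above. The windows of *Apoa1* (46228380–46228629), *Apoa4* (46240594–46240843), *Apob* and *Pltp* run past the GENCODE starts at 46228580, 46240696, 7977648 and 164857711. The *Mttp* window (138143419–138143668) lies inside the GENCODE gene. TATAAA began 60 bases before the RefSeq start of *Apob* and 31 bases before that of *Apoa5*, and 12.37% of the 32851 windows in the table held it. In the other window of *Apoa5* it began 56 bases before the start, and in 1 of the 2 windows of *Apoa2* it began 212 bases before. GGGCGG was found in *Pltp* alone among the 8 genes, 37 bases before the start, against 32.74% of all windows. AGGTCA was found in *Apoc2*, 115 bases before the start, and in the other window of *Apoa2*, 238 bases before, against 14.02% of all windows. The windows of *Apoa1*, *Apoa4* and *Mttp* held none of the 3 motifs. A match in these letters describes the window and is not evidence of a bound factor.

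In liver the 10 genes together took 2.23% ± 0.0877 (SD, n = 3) of the library in mice labelled f/f and 2.26% ± 0.111 in those labelled MKO, so the sums differed by less than the spread between livers. *Apoa1* alone took 1.03% ± 0.123 and 0.928% ± 0.0782, followed by *Apob* with 0.484% ± 0.0635 and 0.436% ± 0.0246 and *Apoa2* with 0.277% ± 0.0183 and 0.379% ± 0.0414. The plot of shares shows that the total stayed close to level while the slices did not: the slices of *Apoa2* and *Apoc1* were wider in all 3 livers labelled MKO.

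**Figure D1:**
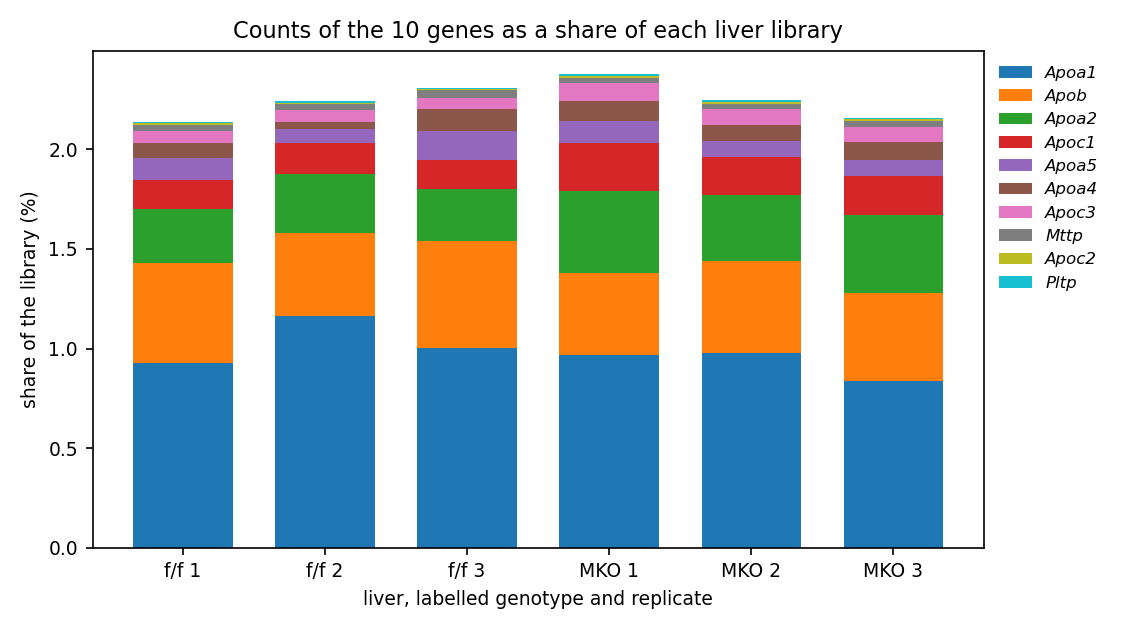
Counts of each of the 10 genes as a percentage of all counts, stacked for the 6 livers by labelled genotype and replicate. The group means of the whole stack were 2.23% and 2.26%, and the *Apoa2* slice was 0.277% on average in f/f and 0.379% in MKO.

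Levels between genes were compared as CPM per kb of exonic sequence, scaled with TMM factors within liver, over all 6 livers. *Apoa1* was highest at 7916 ± 709 (SD, n = 6) CPM per kb and *Apoa2* next at 6108 ± 1176, with ranges that overlapped and *Apoa1* above *Apoa2* in 5 of the 6 livers. *Apoc1* was at 2409 ± 496 and did not overlap with its neighbours in this order. *Apoc3* (687 ± 123), *Apoa4* (449 ± 148), *Apoa5* (396 ± 116) and *Apob* (331 ± 47.1) formed a run in which each range overlapped with the next. The bottom of the order was *Apoc2* (124 ± 29.3), *Mttp* (49.2 ± 8.32) and *Pltp* (21.9 ± 9.65 CPM per kb), which did not overlap. *Apob*, the longest of the genes at 13.9 kb, was thus second by share of the library and seventh per kb. The spread between livers also differed between genes: the coefficient of variation of CPM was 8.96% for *Apoa1* and 14.2% for *Apob*, against 32.96% for *Apoa4* and 44.1% for *Pltp*. The highest liver exceeded the lowest 3.41 times for *Apoa4* and 4.26 times for *Pltp*, with both extremes of each among the livers labelled f/f.

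Whether the genes differed between the genotypes was asked in liver first. *Apoa2*, *Apoc1* and *Apoc3* were each about 1.3 to 1.4 times as high in livers labelled MKO, with groups that did not overlap, while *Apoa1* was lower by a smaller amount and *Mttp*, *Apoa5* and *Apob* had lower means with overlapping groups. None of these differences passed adjustment: with the edgeR quasi-likelihood test, 0% of the 15062 genes tested in liver had an adjusted p under 0.05 (lowest 0.0634), and the adjusted p of the 10 genes lay between 0.334 and 0.943. At an unadjusted p under 0.05 there were 3 of the 10, all of them higher, where 10.5% of all genes passed and 5.27% passed and were higher. Among genes with a mean of at least 1000 counts, the share that passed and was higher changed with exonic length. It was 40.8% under 1 kb, the class of *Apoa2* and *Apoc1*, and 19.6% at 1 to 2 kb, that of *Apoc3*. Of the 10, 6 had a log2 fold change above 0 and 4 below, with a median of 0.20 against −0.0064 over all genes. The groups did not overlap for 4 of the 10, against 17.3% of all genes. DESeq2 called 1 of the 10 at an adjusted p under 0.05 (*Apoc3*), where it called 1.77% of all genes. The MARS model on summed counts, which has no term for the spread between animals, called all 10 with no limit on fold change, where it called 56.7% of all genes. Its log2 fold changes for the 10 lay between −0.27 (*Apoa5*) and 0.49 (*Apoc1*). The libraries of a group are described as coming from separate mice, and the p-values measure the spread between these libraries. In whole tissue, fewer cells of a type and less RNA per cell cannot be told apart.

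**Figure D2:**
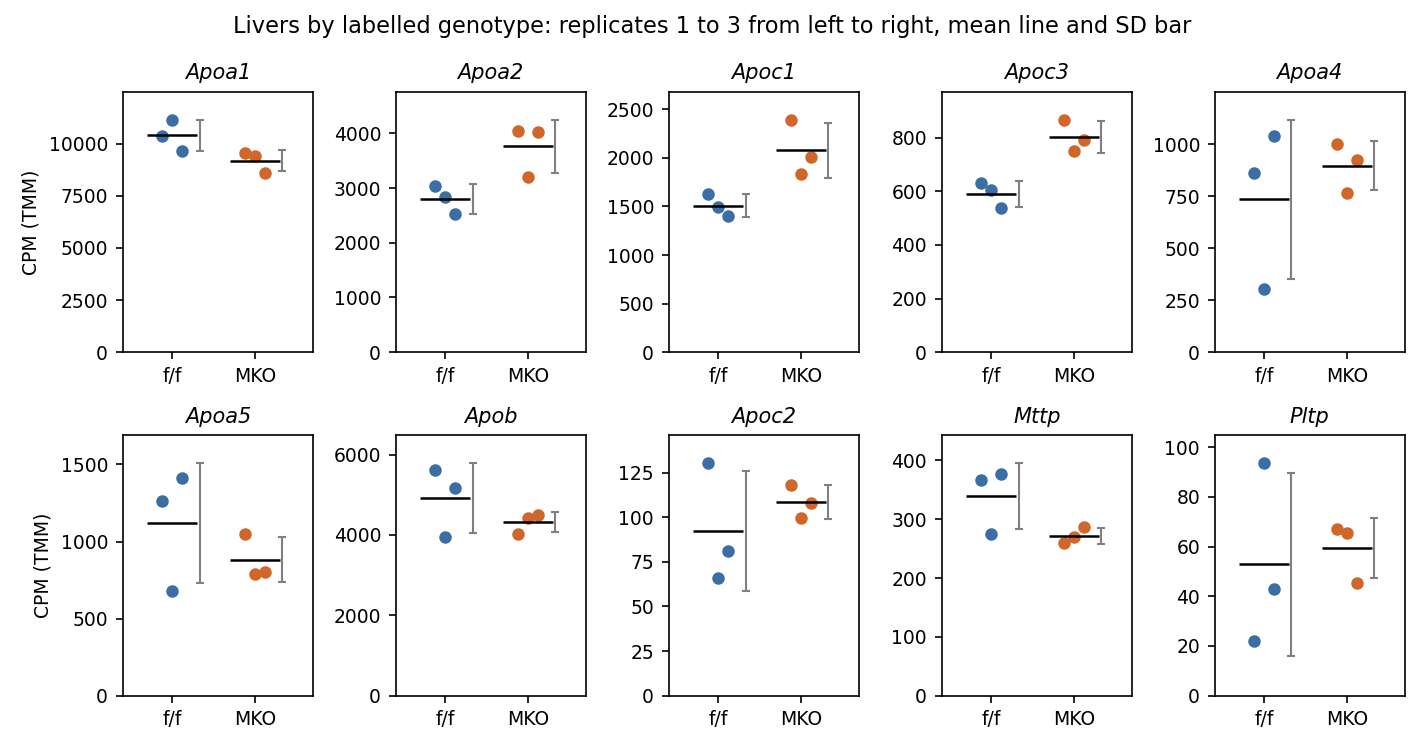
TMM-normalized CPM of the 10 genes in the 6 livers, 1 panel per gene with its own axis from 0, points for replicates 1 to 3 of each labelled genotype, a line at the mean and a grey bar for the SD. *Apoa2*, *Apoc1* and *Apoc3* lay higher in all 3 livers labelled MKO, and the lowest *Apoa4* and *Apoa5* values belonged to f/f replicate 2.

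Among the C apolipoproteins, *Apoc3* and *Apoc1* separated the labelled genotypes and *Apoc2* did not. *Apoc3*, whose product restrains lipoprotein lipase, was at 631, 605 and 538 CPM in the f/f livers and at 866, 750 and 790 CPM in the MKO livers. The lowest MKO liver was above the highest f/f liver, and the log2 fold change was 0.44 (SE 0.12, edgeR unadjusted p = 0.00758, adjusted p = 0.334). *Apoc1*, whose product inhibits lipoprotein lipase and slows particle uptake, was at 1631, 1489 and 1399 CPM against 2391, 1833 and 2009, again without overlap. Its log2 fold change was 0.46 (SE 0.14, edgeR unadjusted p = 0.0141, adjusted p = 0.368). *Apoc2*, the activator of lipoprotein lipase, measured 130, 65.9 and 80.9 CPM against 118, 99.5 and 108, a log2 difference of 0.23 (SE 0.24, adjusted p by edgeR = 0.790). Here f/f replicate 1 was the highest of the 6 livers and f/f replicate 2 the lowest, so that the MKO livers lay inside the f/f range.

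*Apoc2* shares 79.5% of its exonic bases with the overlapping gene *Gm44805* on the same strand, which held 46.1% of the counts of both in liver and 0.981% in BMDMs. *Gm44805* was examined after these values were seen. It had 1954, 2322 and 2091 counts in livers labelled f/f against 3904, 4229 and 2762 in those labelled MKO, a log2 difference of 0.62 (edgeR unadjusted p = 0.000169, adjusted p = 0.303). With both counts summed, an alternative added after seeing the data, *Apoc2* stood at 196, 130 and 150 CPM against 227, 200 and 206, and the groups no longer overlapped, as for 9.6% of all genes in this direction. The log2 fold change of the sum was 0.41 (SE 0.16, edgeR unadjusted p = 0.0384, adjusted p = 0.443). How reads over the shared exons were divided is not given in the sources used here, so the value of *Apoc2* alone is uncertain.

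The main HDL apolipoproteins went in opposite directions. *Apoa2* was at 3045, 2837 and 2518 CPM in the f/f livers and at 4049, 3199 and 4032 CPM in the MKO livers. The groups did not overlap, and the log2 fold change was 0.43 (SE 0.15, edgeR unadjusted p = 0.0248, adjusted p = 0.418). *Apoa1* was at 10386, 11135 and 9656 CPM against 9533, 9404 and 8588, so every MKO liver was below every f/f liver, as for 7.74% of all genes. The margin was small, with a log2 difference of −0.18 (SE 0.13, adjusted p by edgeR = 0.678). Ratios within a library do not depend on the scaling between libraries. For each 100 counts of *Apoa1* there were 29.3, 25.5 and 26.1 counts of *Apoa2* in livers labelled f/f and 42.5, 34.0 and 46.9 in those labelled MKO. The same ratio for *Apoc3*, which lies next to *Apoa1* on the opposite strand, was 6.07, 5.44 and 5.57 against 9.09, 7.98 and 9.20, and for *Apoc1* it was 15.7, 13.4 and 14.5 against 25.1, 19.5 and 23.4. These 3 ratios were higher in every liver labelled MKO. Those of *Apoa4* (8.27, 2.73 and 10.7 against 10.5, 8.15 and 10.7) and *Apoa5* (12.2, 6.08 and 14.6 against 11.01, 8.41 and 9.33) overlapped between the groups. All these ratios were formed after the levels were seen and were not tested.

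*Apoa4* and *Apoa5*, the other genes of the chromosome 9 cluster, were marked by f/f replicate 2. *Apoa4* was at 859, 304 and 1038 CPM in the f/f livers and at 1000, 766 and 921 CPM in the MKO livers. *Apoa5*, whose product promotes triglyceride clearance, was at 1265, 677 and 1412 CPM against 1049, 791 and 801. For both genes f/f replicate 2 was the lowest liver of the 6 and f/f replicate 3 the highest. The log2 fold changes were 0.29 (SE 0.42) for *Apoa4* and −0.34 (SE 0.28) for *Apoa5*, with edgeR adjusted p of 0.862 and 0.719. Without f/f replicate 2 they were −0.087 and −0.61, so that the direction of *Apoa4* turned.

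*Apob* and *Mttp*, which together form the nascent VLDL particle, had lower means in the livers labelled MKO with overlapping groups. *Apob* measured 5623, 3956 and 5179 CPM against 4035, 4417 and 4497, a log2 difference of −0.19 (SE 0.16, adjusted p by edgeR = 0.735). *Mttp* measured 365.9, 274.6 and 376.5 CPM against 260, 270 and 287, a log2 difference of −0.32 (SE 0.14, edgeR unadjusted p = 0.0616, adjusted p = 0.4997). Replicate 2 of the f/f livers was the lowest of the 6 for *Apob*, and for *Mttp* it was the one f/f liver inside the MKO range. Without it the log2 fold changes were −0.33 and −0.45, with edgeR unadjusted p of 0.0421 and 0.00385.

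*Pltp* had the widest spread. It was at 21.9, 93.5 and 43.1 CPM in the f/f livers and at 67.2, 65.5 and 45.5 CPM in the MKO livers, a log2 difference of 0.17 (SE 0.49, adjusted p by edgeR = 0.943). The f/f livers held both the lowest and the highest value, and the fold change was 0.87 without f/f replicate 2 and −0.20 without f/f replicate 1. Summed markers of stellate cells and fibroblasts (6 genes) were at 32.1, 295 and 170 CPM in the f/f livers and at 170, 170 and 113 CPM in the MKO livers, with the same lowest and highest liver as *Pltp*. Kupffer cell markers (5 genes) were at 223, 590 and 436 CPM against 389, 503 and 195, and f/f replicate 2 was again the highest. The part of these cells in the level of *Pltp* was not tested.

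Single livers carried several of these comparisons. *Apoc3* stayed at an unadjusted p under 0.05 with any liver left out, with log2 fold changes of 0.37 to 0.48. *Apoc1* (0.35 to 0.53) lost it without MKO replicate 1, and *Apoa2* (0.35 to 0.52) lost it without f/f replicate 3, MKO replicate 1 or MKO replicate 3. Without f/f replicate 2 there were 7 of the 10 genes at that limit (13.9% of all genes), with *Apoa5*, *Apob* and *Mttp* lower and *Pltp* higher beside the 3. Without f/f replicate 1 there were 4 (10.5% of all genes), with *Apoc2* at 0.55 as the fourth. Without MKO replicate 1 only *Apoc3* was at that limit (7.01% of all genes). The first letter of the sample ID, A or B, whose meaning is not given in the sources used here, was shared by both genotypes. Within letter A (2 f/f livers and 1 MKO liver) the log2 ratios of means were 0.35 for *Apoc3*, 0.36 for *Apoc1* and 0.46 for *Apoa2*, and within letter B (1 and 2 livers) they were 0.59, 0.59 and 0.53.

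**Figure D3:**
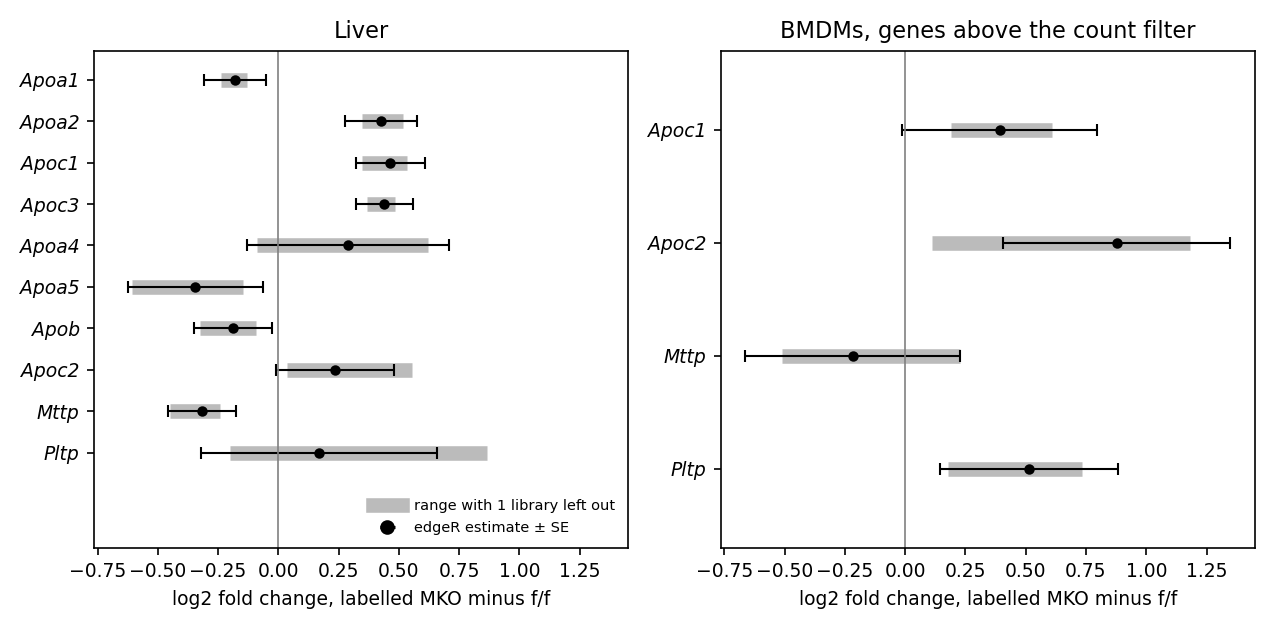
Log2 fold change between labelled genotypes (MKO minus f/f) with its SE for the 10 genes in liver and for the 4 genes tested in BMDMs, over a grey band for the range of the estimates with 1 library left out. The bands of *Apoa2*, *Apoc1* and *Apoc3* in liver lay above 0, and those of *Apoa4* and *Pltp* in liver and *Mttp* in BMDMs crossed it.

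Exonic length moved with the liver differences. *Apoa2* (0.537 kb), *Apoc1* (0.744 kb) and *Apoc3* (1.01 kb) are short, and *Apob* (13.9 kb) and *Mttp* (6.21 kb) are long. Among genes with a mean of at least 1000 counts, the median log2 fold change in liver was 0.23 for the 103 genes under 1 kb, 78.6% of which were higher in livers labelled MKO, and 0.10 for the 403 genes of 1 to 2 kb. It was −0.055 for the 1462 genes of 4 to 8 kb and −0.063 for the 783 longer ones. *Apoa1*, at 1.24 kb, and *Apoa5*, at 2.52 kb, stood below the median of their length classes. The share of counts from mitochondrially encoded genes was 5.55 to 6.80% in the livers labelled f/f and 7.72 to 8.15% in those labelled MKO. The part of length or of the mitochondrial share in the differences of *Apoa2*, *Apoc1* and *Apoc3* was not tested.

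**Figure D4:**
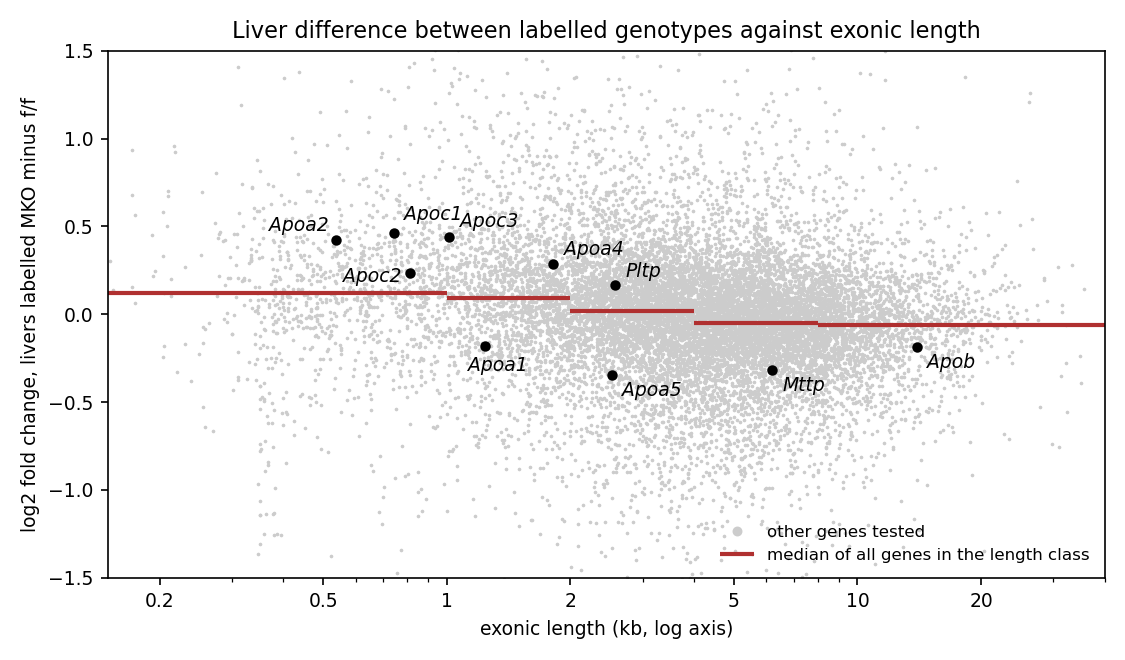
Log2 fold change between labelled genotypes in liver against exonic length on a log axis, with the 10 genes in black, other tested genes in grey and red lines for the median of all tested genes in each length class (154 genes beyond 1.5 on either side are not shown). *Apoa2*, *Apoa4*, *Apoc1*, *Apoc2*, *Apoc3* and *Pltp* lay above the median of their class, and *Apoa1*, *Apoa5*, *Mttp* and *Apob* below it.

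In BMDMs the group was nearly absent apart from *Pltp* and *Apoc2*. The 10 genes took 0.0184% ± 0.00548 (SD, n = 3) of the library in Tshr f/f BMDMs and 0.0318% ± 0.00239 in Tshr MKO BMDMs. *Apoa4*, *Apoa5* and *Apoc3* had 0 counts in all 6 libraries. *Apoa1* had 3 counts and *Apob* 6, all in MKO replicate 1, and *Apoa2* had 4 counts in f/f replicate 2, 4 in MKO replicate 2 and 3 in MKO replicate 3. These 6 genes did not pass the filter on low counts, and the other 4 were tested. Over all genes, MKO replicates 1 and 2 were more alike than the other pairs of BMDM libraries within a group. Their chi-square per gene was 13.4, against 104 and 119 for the other MKO pairs and 244 to 584 for the f/f pairs. Whether these 2 cultures were independent was not tested.

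Of the 4 genes tested in BMDMs, none had an adjusted p under 0.05 with edgeR, as for all 15372 genes tested (0%, lowest adjusted p 0.218), and 0 of the 4 had an unadjusted p under 0.05, against 17.9% of all genes. DESeq2 called 0 of the 4 (7.91% of all genes) and the MARS model, with no limit on fold change, 2 (75.9% of all genes). These were *Apoc2*, at a MARS log2 fold change of 1.05, and *Pltp*, at 0.75. *Pltp*, which macrophages are known to secrete, was at 210, 81.4 and 219 CPM in the 3 f/f cultures and at 250, 238 and 241 CPM in the 3 MKO cultures. All MKO cultures were above all f/f cultures, as for 14.8% of all genes, and f/f replicate 2 stood apart from the other 5. The log2 fold change was 0.51 (SE 0.37, adjusted p by edgeR = 0.474) and 0.18 without that culture. In the same library summed markers of stellate cells and fibroblasts were at 1785 CPM, against 392 to 766 CPM in the other 5, and their part in this value was not tested. *Pltp* also shares 19.3% of its exonic bases with *Ctsa* on the opposite strand, which had 236761 counts in the 6 BMDM libraries against 46170 of *Pltp*, and whether counting used strand is not given in the sources used here.

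*Apoc2* was at 28.0, 32.8 and 26.7 CPM in the 3 f/f cultures and at 34.5, 28.4 and 97.7 CPM in the 3 MKO cultures. MKO replicate 3 alone was high, and the other 5 cultures lay close together. The log2 fold change of 0.88 (SE 0.47, adjusted p by edgeR = 0.363) was 0.11 without that culture and 1.18 without MKO replicate 2. *Mttp* was low, with 57, 51 and 71 counts against 55, 78 and 43, a log2 difference of −0.22 (SE 0.45, adjusted p by edgeR = 0.808) that turned to 0.23 without f/f replicate 3, whose TMM factor of 0.738 was the lowest of the BMDM libraries. *Apoc1* had 14, 11 and 12 counts against 20, 16 and 18, a log2 difference of 0.39 (SE 0.40, adjusted p by edgeR = 0.613).

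Liver and BMDMs were compared within each genotype as kinds of sample, because tissue cannot be told apart from diet, insulin, TSH and culture. *Apoa1*, *Apoa2*, *Apoa4*, *Apoa5*, *Apob* and *Apoc3* passed the filter on low counts through the livers alone, so nothing is read from their calls. Of the 4 genes tested in both tissues, *Apoc1*, *Apoc2* and *Mttp* were higher in liver at an adjusted p under 0.05 and *Pltp* was not, in f/f and in MKO mice alike (edgeR over all 12 libraries, where 36.6% and 36.8% of the 17246 genes tested were called higher in liver). Ratios were taken between summed counts scaled with TMM factors over all 12 libraries, with exact Poisson intervals at the 95% level that cover counting error only, and with a floor of 3 counts over the 3 libraries where a group had none.

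In f/f mice *Apoa1* was at least 704729-fold higher in liver, *Apob* at least 327631-fold, *Apoa5* at least 73509-fold, *Apoa4* at least 47608-fold and *Apoc3* at least 39960-fold. *Apoa2*, with 4 counts in the f/f BMDMs, was higher by a ratio of 141803 (55383 to 520441), and all 4 counts lay in f/f replicate 2. In MKO mice *Apoa4* was at least 64228-fold higher in liver, *Apoa5* at least 63824-fold and *Apoc3* at least 57968-fold, and the ratios were 668739 for *Apoa1* (228830 to 3242780), 156110 for *Apob* (71723 to 425389) and 115139 for *Apoa2* (55882 to 286378), each on 3 to 7 counts in BMDMs. The counts of *Apoa1* and *Apob* all lay in BMDM MKO replicate 1, so their ratios were not compared between the genotypes. *Apoc1* was 8234 times as high in liver in f/f mice (5974 to 11694) and 8325 times in MKO mice (6380 to 11082). *Mttp* was 379 times as high in f/f mice (327 to 441) and 335 times in MKO mice (289 to 390). *Apoc2* was 5.65 times as high in f/f mice (5.45 to 5.84) and 3.64 times in MKO mice (3.56 to 3.73), the smallest ratios among the genes higher in liver. With 1 library left out the fitted log2 difference of *Apoc2* in MKO mice was 1.58 to 2.67, the latter without BMDM MKO replicate 3. With the counts of *Gm44805* added, a choice made after seeing the data, the ratios were 9.70 in f/f mice and 7.03 in MKO mice. *Pltp* went the other way: its level in BMDMs was 1.57 times that in liver in f/f mice and 2.16 times in MKO mice, with edgeR adjusted p of 0.165 and 0.0589. The fitted log2 difference in f/f mice, liver minus BMDM, was −0.43 to −1.51 with 1 library left out. The value also depended on the scaling, since *Pltp* took 0.0154% of the library in f/f BMDMs and 0.0054% in f/f livers. The plot of levels by tissue shows these patterns: *Apoc2* and *Pltp* had BMDM values near those of liver, and the rest were separated by orders of magnitude.

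**Figure D5:**
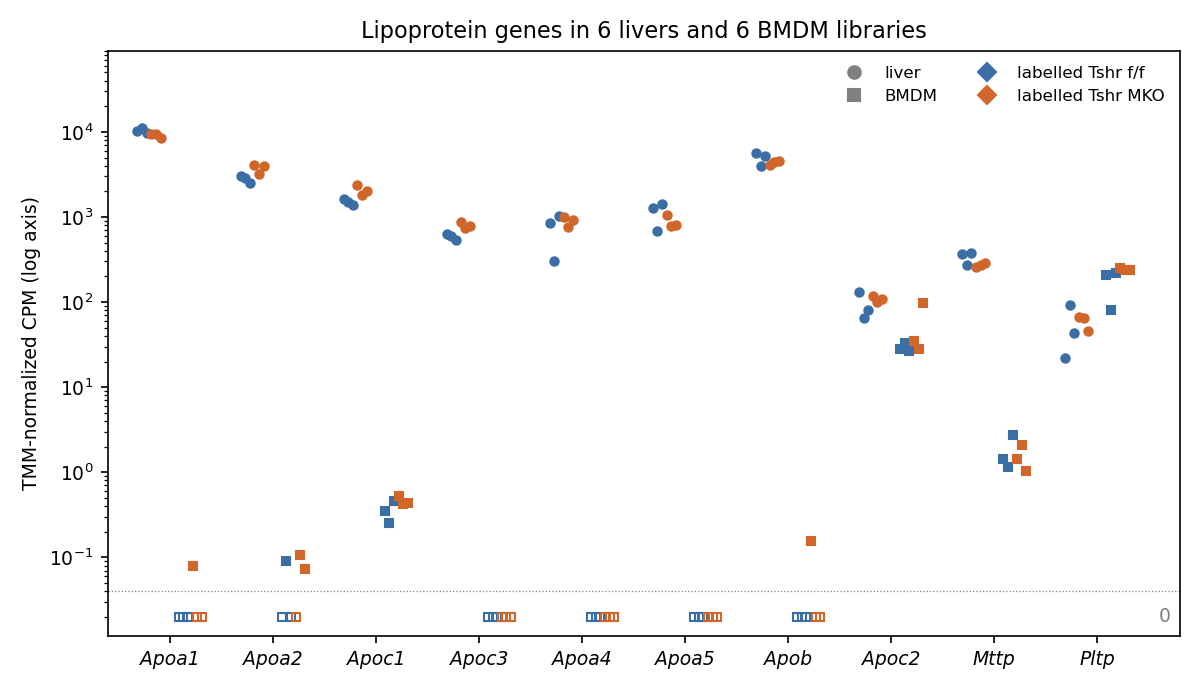
TMM-normalized CPM on a log axis for the 10 genes in order of their liver level per kb, with circles for the 6 livers, squares for the 6 BMDM libraries, color for the labelled genotype and open symbols below the dotted line for 0 counts. CPM was normalized within each tissue. *Apoa4*, *Apoa5* and *Apoc3* were at 0 in all BMDM libraries, and *Pltp* ranged from 81.4 to 250.2 CPM in BMDMs and from 21.9 to 93.5 CPM in liver.

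The difference of the genotype effect between tissues was tested for the 4 genes with enough counts in both. For *Apoc1* it was 0.060 (SE 0.34), for *Apoc2* −0.64 (SE 0.58), for *Mttp* −0.11 (SE 0.44) and for *Pltp* −0.34 (SE 0.69) on the log2 scale, liver minus BMDM. None had an edgeR adjusted p or unadjusted p under 0.05, where 0.0058% and 14.5% of all genes did, and each sign depended on single libraries. For the other 6 genes no such value was taken.

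Other genes of lipoprotein metabolism were counted by list. No gene of any list had an edgeR adjusted p under 0.05 in either tissue. DESeq2 called 0 of the 59 list genes tested in liver (1.77% of all genes) and 12 of the 39 tested in BMDMs (7.91%). The MARS model, with no limit on fold change, called 50 in liver (56.7% of all genes) and 34 in BMDMs (75.9%). At an unadjusted p under 0.05 the background in liver was 10.5% of all genes, 5.27% higher and 5.18% lower. Of 15 genes of VLDL assembly and secretion, all tested in liver, 0 had an unadjusted p under 0.05, with 7 log2 fold changes above 0 and 8 below (median −0.028). Of 10 genes of triglyceride lipolysis and remnant uptake, 0 passed in liver (median 0.059). Among 10 genes of HDL formation and remodelling, *Lipc*, the hepatic lipase, was higher (0.31, SE 0.12, unadjusted p = 0.0337) and *Bmp1*, a protease that trims the A1 precursor, was lower (−0.26, SE 0.11, unadjusted p = 0.0438). Of 9 other apolipoprotein genes 7 were tested, and *Apol9b* (0.57, SE 0.17) and *Apol9a* (0.42, SE 0.17) were higher at that limit. These are close paralogs, so reads may have been divided between them. With 1 liver left out, *Apol9b* stayed at that limit each time, while *Apol9a* and *Lipc* did so in 2 of 6 cases and *Bmp1* in 1 of 6. *Apoc4*, the neighbor of *Apoc2*, was at 358 CPM on average in f/f and 402 CPM in MKO, with an unadjusted p of 0.227.

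The 17 transcriptional regulators of hepatic lipid genes all had log2 fold changes below 0 in liver, with a median of −0.29 against −0.0064 for all genes. At an unadjusted p under 0.05 there were 3, all lower in livers labelled MKO, as were 5.18% of all genes: *Rora* (−0.59, SE 0.17), a nuclear receptor, *Foxa2* (−0.72, SE 0.26), a forkhead factor of hepatocytes, and *Ppargc1b* (−0.74, SE 0.28), a coactivator. With 1 liver left out, *Rora* stayed at that limit each time, *Foxa2* in 3 of 6 cases and *Ppargc1b* in 2 of 6. *Hnf4a*, a nuclear receptor needed for the expression of many apolipoprotein genes, was at 1094 CPM on average in f/f and 863 CPM in MKO (−0.34, SE 0.15, unadjusted p = 0.0614), and was named after its values were seen. The median exonic length of this list was 4.83 kb, a class whose median was below 0, and its part in the count was not tested.

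The same lists were read in BMDMs. *Sort1* (1.29, SE 0.27), a sorting receptor, and *Apobec1* (1.37, SE 0.50), the editor of *Apob* mRNA, were higher in Tshr MKO BMDMs, and *Dgat2* (−4.02, SE 1.03), *Soat2* (−1.32, SE 0.40) and 1 more of the 10 VLDL genes tested were lower, all at an unadjusted p under 0.05, where 7.73% of all genes were higher and 10.2% lower. In the HDL list *Scarb1* (0.75, SE 0.22) and *Abcg1* (1.07, SE 0.40), which move cholesterol between cells and HDL, were higher and *Lipg* (−4.30, SE 1.61) was lower. *Lipg* was at 1.76, 0.25 and 27.1 CPM in the 3 f/f cultures and at 0.37, 0.64 and 0.46 CPM in the 3 MKO cultures, which overlap, and its difference was −1.04 (unadjusted p = 0.261) without f/f replicate 3. That culture was also the highest for *Dgat2*, at 1.46, 5.86 and 24.0 CPM against 0.47, 0.80 and 0.65, which was −2.503 without it. *Lpl*, the lipoprotein lipase that *Apoc2* activates, was at 219 CPM on average in Tshr f/f BMDMs and 974 CPM in the 3 MKO cultures (2.15, SE 0.64, unadjusted p = 0.0144), and *Sdc1* was lower (−0.71, SE 0.20). Among the regulators *Cebpa* (1.96, SE 0.39), *Rxra* (0.83, SE 0.17) and *Creb3l3* (2.00, SE 0.57, at under 1 CPM) were higher, and the 3 other apolipoprotein genes tested, *Apol6* (−4.03, SE 1.05), *Apol9a* (−2.48, SE 0.74) and *Apol9b* (−2.27, SE 0.79), were lower. *Apol9b* was at −1.54 (unadjusted p = 0.0922) without f/f replicate 3, and *Apobec1* and *Abcg1* stayed at that limit in 2 and 3 of the 6 cases with 1 culture left out. The lowest edgeR adjusted p in these lists was 0.218. Summed macrophage markers in the same libraries were at 15282 to 17974 CPM in f/f and 20403 to 30229 CPM in MKO. *Lyz2*, at 9157 CPM on average in f/f and 17658 CPM in MKO, carried that gap, and the other 9 summed to 6417, 7002 and 9206 CPM against 6512, 5875 and 7922. Of the 10 markers, *Mrc1* (2.13, SE 0.43), *Cd163* (1.02, SE 0.31, at 1.25 and 2.54 CPM on average) and *Lyz2* (0.95, SE 0.25) were higher at that limit. *Cd14* was lower (−2.46, SE 0.88, edgeR unadjusted p = 0.0297). It was at 387, 507 and 2806 CPM in f/f and 159, 135 and 378 CPM in MKO, with f/f replicate 3 the highest. The part of these markers in the values was not tested.

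Likeness to the group was described over the 6 livers by the Pearson correlation of log2 CPM, across 11971 genes with a mean of at least 50 counts. The genes closest to the mean of the 10 were *Ccdc163* (r = 0.981), *Amt* (0.980), *Lias* (0.977), *Gpr19* (0.975) and *Mdh2* (0.969). Those closest to *Apoa4* alone were *Pi4kb* (0.980), *Gm28557* (0.976), *Gnl3* (0.973), *Inpp1* (0.969) and *Hacl1* (0.969). These 6 libraries share their scaling, and the values are a description without a test.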

How the data were processed

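Strand-specific libraries of 6 livers and 6 BMDM cultures were sequenced on an Illumina instrument. The authors handled reads with Skewer, and the submitters' processing notes name FastQC 0.11.2, STAR, StringTie and mm10 without a role or an order. The counting program and its strand setting are not given in the sources used here. The values are raw read counts per gene as deposited, and the authors' test columns were not used. Gene positions and exonic lengths came from GENCODE M21 (GRCm38).

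Each tissue was tested with edgeR 4.0.16 (R 4.3.3): filterByExpr, TMM factors, robust quasi-likelihood F test, genotype as the single term, Benjamini-Hochberg adjustment over all genes tested. The SE of each log2 fold change was obtained as the absolute value divided by the root of the F statistic. Liver and BMDMs were compared in 1 fit over the 12 libraries. The study's own model, DEGseq MARS on counts summed per group, has no term for the spread between animals and was kept as an alternative beside DESeq2 1.42.0, RLE and upper-quartile scaling, other filters, a replicate block, the sample ID letter and each library left out. The edgeR, DESeq2 and MARS fits of the genotype comparisons were tested on simulated data. Likeness used log2 CPM with a prior count of 2.

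All 10 genes are named. From each list the genes with an unadjusted p under 0.05 are named, at most 4 per list and tissue by smallest p, with exceptions stated. The genes and lists were chosen with earlier results of these data known. Python 3.11.15 with pandas 2.3.3 and matplotlib 3.10.9 served for tables and plots.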

Additional observations from a re-analysis of the deposited data

How the results depend on the processing

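In liver the number of the 10 genes with an adjusted p under 0.05 was 0 with edgeR, 1 with DESeq2 (*Apoc3*, adjusted p = 0.0215, where 1.77% of all genes were called) and 10 with the MARS model (56.7% of all genes), and at an unadjusted p it was 3 with edgeR, 4 with DESeq2, 2 in the joint fit of 12 libraries and 10 with MARS. With 1 library left out, the unadjusted count ranged from 1 to 7 in liver (6.93 to 13.9% of all genes) and from 0 to 1 in BMDMs (8.15 to 25.4%), where MARS called 2 of the 4 genes at an adjusted p (75.9% of all genes) and 3 at an unadjusted p. Between liver and BMDMs the number called ranged from 9 to 10, of which 6 rest on the filter passed through liver alone, so nothing is read from those 6. In the main fit 69.3% of all genes were called in f/f mice and 68.5% in MKO mice (edgeR adjusted p under 0.05). With 1 library left out the log2 fold change turned in direction for *Apoa4* (−0.087 to 0.62) and *Pltp* (−0.20 to 0.87) in liver and for *Mttp* in BMDMs (−0.51 to 0.23, and 0.035 with MARS). The difference between tissues ranged from −0.15 to 0.27 for *Apoc1*, −0.96 to 0.13 for *Apoc2*, −0.55 to 0.18 for *Mttp* and −0.72 to 0.36 for *Pltp*. The cause was not tested. Adjusted p ranged from 0 (MARS) to 0.698 for *Apoc3*, to 0.712 for *Apoc1* and to 0.931 for *Apoa2*. *Pltp* in MKO mice was called lower in liver than in BMDMs with upper-quartile scaling, no filter and DESeq2, and without BMDM f/f replicate 2, liver f/f replicate 1 or liver f/f replicate 2. In f/f mice it was called without BMDM f/f replicate 2 (adjusted p = 0.0487) or liver f/f replicate 2 (adjusted p = 0.0130).

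The share of the library moved by construction when other genes were left out of the total: without the 10 largest other genes it was 2.71% in livers labelled f/f, 2.76% in those labelled MKO and 0.0364% in MKO BMDMs, and without mitochondrially encoded genes 2.37% and 2.45% in liver.

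Libraries with the same replicate number did not deviate together (correlations −0.056, 0.22 and −0.021 in liver and 0.096, 0.013 and 0.10 in BMDMs), and with a replicate block 3 genes in liver and 0 in BMDMs had an unadjusted p under 0.05. In BMDMs *Apoc1* rested on 11 to 20 counts a library and *Mttp* on 43 to 78.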
